A study of Mus musculus with 10 samples.

Results

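The 35 genes described here encode enzymes that cut the extracellular matrix and the proteins that hold those enzymes in check. They were chosen by name and comprise 14 matrix metalloproteinases (MMPs), 4 tissue inhibitors of metalloproteinases (TIMPs), 5 ADAMTS proteases, 3 genes of the plasminogen activator system and 9 serpins, out of 45706 genes counted. Uterine RNA was sequenced from 5 control mice (*Arid1a* f/f) and 5 *Ltf* iCre/+ *Arid1a* f/f mice (here called mutant) at gestation day (GD) 3.5, just before decidualization begins. All females were mature adults of a mixed C57BL/6, 129S6/SvEvTac, 129P2/OlaHsd and 129S1/SvImJ background, mated with wildtype males, and both genotypes carry loxP-flanked *Arid1a*, which encodes a subunit of the SWI/SNF chromatin remodeling complex. In the mutant females Cre recombinase is driven by the lactoferrin gene and removes *Arid1a* from the epithelium of the endometrium, and lactoferrin is also made by neutrophils. The RNA came from a portion of whole uterine tissue, so that epithelium, stroma, muscle, vessels and blood cells were measured together.

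MMPs and ADAMTS proteases are zinc enzymes that cleave collagens, proteoglycans and cell surface proteins. TIMPs bind MMPs and block them, and TIMP3 also inhibits several ADAMTS enzymes. Plasminogen activators turn plasminogen into plasmin, which degrades fibrin and activates some MMPs, while many serpins trap serine proteases, the class to which plasmin and its activators belong. In the uterus these enzymes and inhibitors take part in the tissue remodeling of the estrous cycle, implantation and decidualization.

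The promoters of the MMP genes that sit together on mouse chromosome 9 are shown first, because all 3 members that were higher in mutant uteri lie there. *Mmp13*, *Mmp12*, *Mmp3*, *Mmp10*, *Mmp8* and *Mmp7* follow one another in that order over 427 kb (chr9:7272514-7699585, GRCm38), and the *Ltf* gene that carries Cre lies 103 Mb away on the same chromosome. For comparison the promoters of *Mmp15* and *Adamts9*, which were lower, are also given. Each stretch holds bases upstream of a RefSeq transcript start on GRCm38.p6 and outside annotated exons, 5′ to 3′ on the strand of the gene. Capitals mark TGANTCA (the binding motif of AP-1 factors), TATAAA (the TATA box) and GGGCGG (the GC box), each searched on both strands.
Mmp13, chr9:7272434-7272513, plus strand: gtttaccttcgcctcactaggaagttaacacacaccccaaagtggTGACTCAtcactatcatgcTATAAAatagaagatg
Mmp12, chr9:7347294-7347373, plus strand: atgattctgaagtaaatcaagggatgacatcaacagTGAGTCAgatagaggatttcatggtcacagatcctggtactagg
Mmp3, chr9:7445742-7445821, plus strand: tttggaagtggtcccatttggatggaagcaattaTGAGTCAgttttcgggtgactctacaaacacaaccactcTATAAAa
Mmp10, chr9:7502262-7502341, plus strand: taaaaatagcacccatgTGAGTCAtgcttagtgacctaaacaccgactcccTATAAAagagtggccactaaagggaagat
Mmp8, chr9:7558349-7558428, plus strand: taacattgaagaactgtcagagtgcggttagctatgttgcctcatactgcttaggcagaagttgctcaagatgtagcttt
Mmp7, chr9:7692010-7692089, plus strand: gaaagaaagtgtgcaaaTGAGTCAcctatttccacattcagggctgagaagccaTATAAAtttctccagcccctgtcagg
Mmp15, chr8:95352188-95352267, plus strand: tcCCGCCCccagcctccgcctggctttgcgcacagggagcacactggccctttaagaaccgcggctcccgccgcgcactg
Adamts9, chr6:92943535-92943614, minus strand: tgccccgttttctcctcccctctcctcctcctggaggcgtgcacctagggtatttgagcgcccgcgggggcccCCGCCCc

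RefSeq windows from 250 bases before to 50 after a start were matched for 27 of the 35 genes. *Adamts4*, *Adamts5*, *Mmp19*, *Mmp2*, *Mmp9*, *Plat*, *Plau* and *Serping1* had no entry. TGANTCA was found in 8 of the 27, against 8.97% of the 27025 genes with a window, and these were *Mmp3*, *Mmp7*, *Mmp10*, *Mmp12*, *Mmp13*, *Plaur*, *Serpinb2* and *Serpinb5*. TATAAA was present in 8 of 27, against 15.7% of all genes, and GGGCGG in 17 of 27, against 38.2%. In *Mmp12* and *Mmp8* the TATAAA letters begin at positions 5 and -3 from the start and so are not in the stretches printed above. Each of the 3 genes that were higher, *Mmp7*, *Mmp8* and *Mmp12*, held TATAAA and none held GGGCGG, whereas 5 of the 6 genes that were lower and had a window held GGGCGG and none held either of the other motifs. The genes that did not pass the threshold held all 3, with GGGCGG in 12, TATAAA in 5 and TGANTCA in 6 of 18, and these included *Mmp3*, *Mmp10* and *Mmp13*, which hold both TATAAA and TGANTCA. These matches describe letters in a window and were not tested as binding sites.

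Levels are in CPM, which are counts scaled by the depth of each library, and were divided by the kilobases of exon where genes are set against each other. Per kilobase, *Serpinh1*, the collagen chaperone HSP47, was the most abundant of the 35 genes in control uteri, at 484 CPM per kilobase (range 402 to 582). The gelatinase gene *Mmp2* followed at 133 (110 to 161), the inhibitor *Timp2* at 121 (108 to 137), the complement C1 inhibitor *Serping1* at 102 (84.6 to 135), *Serpinf1*, which encodes the antiangiogenic factor PEDF, at 98.0 (89.3 to 111), and the membrane-bound MMP gene *Mmp14* at 63.0 (53.0 to 71.7). The ranges of neighbors in this order overlapped from *Mmp2* to *Serpinf1*, while *Serpinh1* stood clear above them. At the other end, *Mmp12* (0.0157), *Mmp8* (0.0225), *Mmp13* (0.0363) and *Timp4* (0.00522 CPM per kilobase) were close to the limit of detection in controls. The plot of levels by uterus shows this spread.

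**Figure D1:**
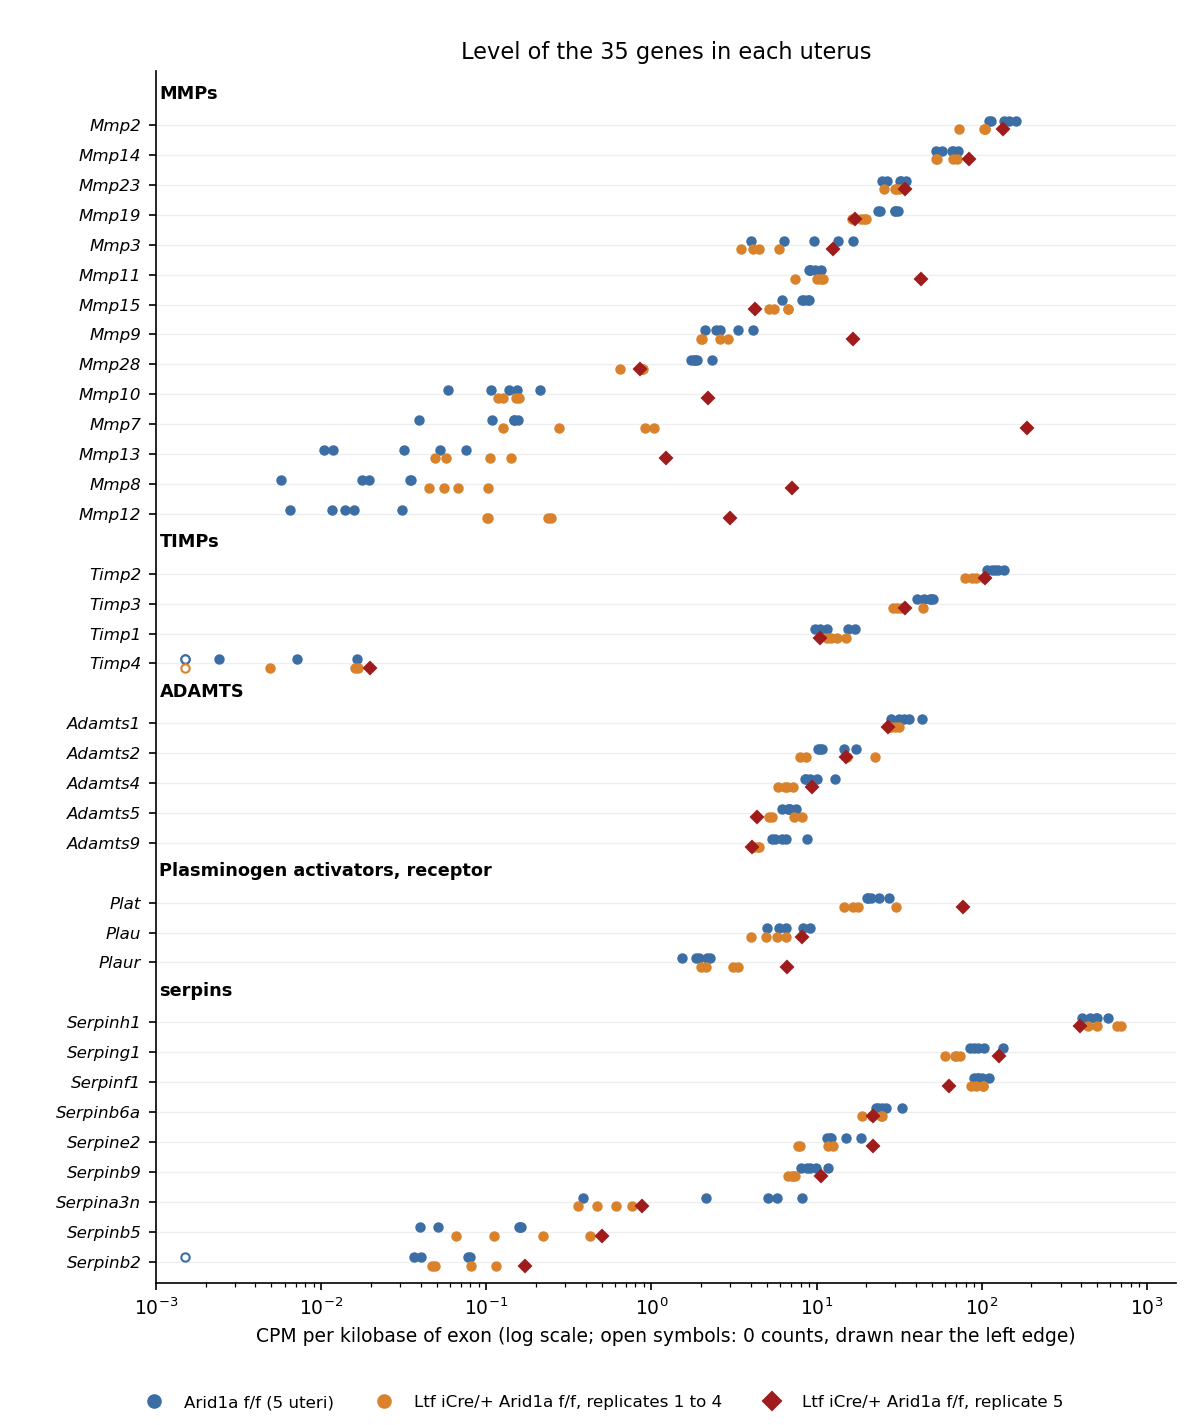
CPM per kilobase of exon (log scale) of the 35 genes in each of the 10 uteri, by family and ordered by control level, with control uteri in blue, mutant replicates 1 to 4 in orange and replicate 5 as red diamonds. *Serpinh1* is highest at a control mean of 484, *Timp4* lowest at 0.00522, and replicate 5 lies far to the right of all other uteri for *Mmp7*, *Mmp8*, *Mmp9*, *Mmp10*, *Mmp11*, *Mmp12* and *Mmp13*.

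The quasi-likelihood test of edgeR compared mutant with control uteri, with Benjamini-Hochberg adjustment over the 25146 genes that had a mean of at least 1 count per uterus, and all 35 genes were among them. At an adjusted p under 0.05, 10 of the 35 (28.6%) differed between genotypes, against 9.7% of all genes tested. *Mmp7*, *Mmp8* and *Mmp12* were higher in mutant uteri (5.19% of all genes), and *Mmp15*, *Mmp19*, *Mmp28*, *Timp2*, *Timp3*, *Adamts9* and *Serpina3n* were lower (4.51% of all genes). The values of the genotypes did not overlap for 6 of the 35, namely *Mmp8*, *Mmp12*, *Mmp19*, *Mmp28*, *Timp2* and *Adamts9*, against 10.7% of all genes (2 with the mutant higher, against 5.53%, and 4 with the mutant lower, against 5.16%). An exact permutation test over uteri (two-sided, log2 CPM) cannot give a p below 0.00794 with 5 against 5, which becomes 0.0742 after adjustment over all genes, so its values are given as raw p. DESeq2 called 9 of the 35 genes, against 16.2% of all genes, and gave no adjusted p to 7 of them (*Mmp7* to *Mmp13*), against 8.47%. The median log2 fold change was -0.14 over the 35 genes and 0.026 over all genes tested.

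Libraries held 65351817 to 72702411 counts in controls and 59296537 to 67990486 in mutant uteri. *Arid1a* itself was at 213 ± 22.9 CPM (SD, n = 5) in controls and 185 ± 15.9 in mutant uteri (log2 fold change -0.20, adjusted p = 0.201), counted over all its exons and all cells of the tissue. *Ltf*, whose allele drives Cre, was at 2.22 to 11.7 CPM in controls, at 23.6 to 383 CPM in mutant replicates 1 to 4 and at 2831 CPM in replicate 5 (log2 fold change 7.23, adjusted p = 0.00920, and 5.27 without replicate 5, adjusted p = 0.00546). Summed epithelial markers ranged from 618 to 810 CPM in controls and from 895 to 1939 in mutant uteri (5 of 6 markers higher), stromal markers from 4501 to 5251 and from 2861 to 4232 (2 of 7 lower), and endothelial markers from 649 to 906 and from 332 to 440 (4 of 5 lower). T cell markers reached at most 14.3 CPM in controls and ranged from 21.7 to 70.3 CPM in mutant uteri (3 of 5 higher), and oviduct or ciliated cell markers ranged from 25.5 to 45.4 and from 3.24 to 14.9 CPM (2 of 4 lower). Myometrial markers ranged from 6161 to 10949 CPM in controls and from 3159 to 8671 in mutant uteri (median log2 fold change -0.48, none of 6 past the threshold). NK cell markers ranged from 29.3 to 51.6 and from 19.4 to 56.4 CPM (none of 5 past the threshold). In RNA from whole tissue, fewer cells of a type and less RNA per cell cannot be told apart, and the part of these marker shifts in the results below was not tested. Mutant replicate 5 stood apart from the other uteri. It held the highest of the 10 values for 14 of the 35 genes (15.2% of all genes tested), and its summed neutrophil markers reached 826 CPM, against 5.45 to 13.7 in controls and at most 12.3 in the other 4 uteri of its genotype. Without it 11 of the 35 genes passed the threshold, 2 higher (4.93% of all genes) and 9 lower, against 9.15% in either direction of the 25047 genes then tested, and the median log2 fold change of the 35 was -0.19.

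**Figure D2:**
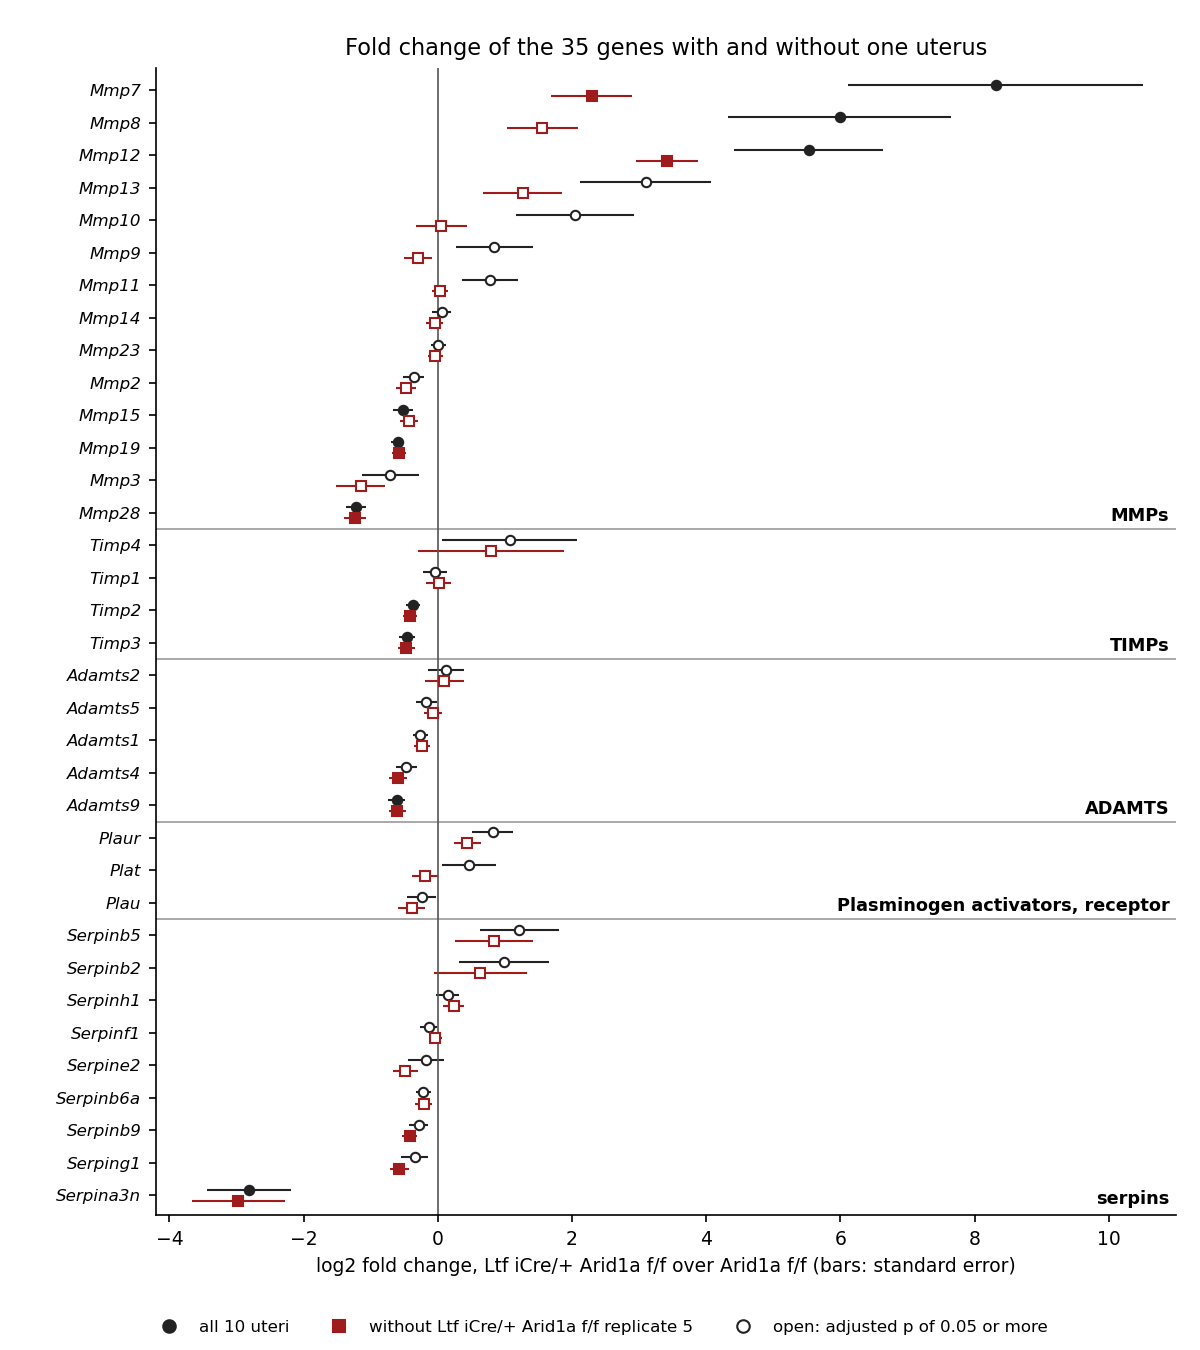
Log2 fold change of each gene in mutant over control uteri with its standard error, from all 10 uteri (black circles) and without mutant replicate 5 (red squares), by family; filled symbols have an adjusted p under 0.05. Leaving out replicate 5 moved *Mmp7* from 8.31 to 2.29, *Mmp8* from 5.99 to 1.56, *Mmp12* from 5.52 to 3.42 and *Plat* from 0.46 to -0.19, and left *Mmp19*, *Mmp28*, *Timp2*, *Timp3* and *Adamts9* at nearly the same values.

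Among the MMPs, 9 of 14 had a positive and 5 a negative log2 fold change, with a median of 0.42 and a range from -1.22 to 8.31. Of these, 3 rose and 3 fell at the threshold. The median was -0.044 without mutant replicate 5, which held the highest value for 8 of the 14. *Mmp12* encodes the elastase of macrophages (ENSMUSG00000049723, chr9:7344381-7369499). Its level was 0.224, 0.0836, 0.0470, 0.114 and 0.1 CPM in control replicates 1 to 5, and 1.71, 1.77, 0.736, 0.741 and 21.7 CPM in mutant replicates 1 to 5. Every mutant uterus exceeded every control, replicate 5 by far the most. The log2 fold change was 5.52 ± 1.10 (SE, adjusted p = 0.0117, exact permutation p = 0.00794) and 3.42 ± 0.46 without replicate 5 (adjusted p = 0.00204), and *Mmp12* passed the threshold when any single uterus was left out. The control values rest on 3 to 16 counts per uterus and those of the other genotype on 45 to 1503. Summed macrophage markers ranged from 115 to 238 CPM in controls and from 197 to 481 in mutant uteri, and none of the 6 passed the threshold.

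*Mmp7*, which encodes the epithelial protease matrilysin (ENSMUSG00000018623, chr9:7692090-7699585), was at 0.0420, 0.167, 0.157, 0.156 and 0.115 CPM in controls and at 1.11, 0.135, 0.294, 0.973 and 202 CPM in mutant replicates 1 to 5. Replicate 5 thus held 13958 counts of *Mmp7* where no other uterus held more than 71, and replicate 2 lay within the control range. Per kilobase, *Mmp7* made up 34.4% of the summed MMP level in replicate 5 and at most 0.499% in any other uterus. The log2 fold change was 8.31 ± 2.20 (adjusted p = 0.0371, exact permutation p = 0.0317) with all uteri and 2.29 ± 0.60 (adjusted p = 0.0386) without replicate 5. Leaving out any of the 5 controls ended the call (adjusted p from 0.0790 to 0.09), as did leaving out mutant replicates 1 and 5 together (log2 fold change 1.87, adjusted p = 0.0803).

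*Mmp8*, the neutrophil collagenase (ENSMUSG00000005800, chr9:7558456-7568485), was at 0.0839, 0.0139, 0.0470, 0.0852 and 0.0431 CPM in controls and at 0.11, 0.135, 0.163, 0.247 and 17.2 CPM in mutant replicates 1 to 5. The genotypes did not overlap, but outside replicate 5 no uterus held more than 17 counts. Its log2 fold change of 5.99 ± 1.66 (adjusted p = 0.0440, exact permutation p = 0.00794) fell to 1.56 ± 0.53 without replicate 5, when it no longer passed the threshold (adjusted p = 0.0919). Omitting any control also ended the call (adjusted p from 0.0824 to 0.106). Of the neutrophil markers measured beside it, *S100a8* stood at 290 CPM and *S100a9* at 383 CPM in replicate 5, against at most 1.26 and 2.12 CPM in any other uterus. Replicate 5 held the highest value for 7 of the 9 neutrophil markers. The receptor genes *Csf3r* (90.5 CPM) and *Cxcr2* (48.0 CPM) and the surface marker *Ly6g* (5.32 CPM) were among them. Of the granule protein genes, *Ngp* (7.78 CPM) and *Camp* (1.29 CPM) were also highest there, whereas *Mpo* was at 0.231 CPM and *Elane* at 0 counts. *Ly6g* alone of the 8 tested passed the threshold with all uteri (log2 fold change 3.82, adjusted p = 0.0294), and the part of neutrophil RNA in the *Mmp8* level was not tested.

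The other MMP genes of the chromosome 9 group did not pass the threshold. *Mmp13*, a collagenase, was at 0.0279 to 0.201 CPM in controls and at 0.282, 0.152, 0.131, 0.378 and 3.28 CPM in mutant replicates 1 to 5 (log2 fold change 3.10 ± 0.98, adjusted p = 0.0687). *Mmp10*, stromelysin-2, was at 0.1 to 0.364 CPM in controls and at 0.204 to 0.270 CPM in mutant replicates 1 to 4, and only replicate 5 stood above at 3.81 CPM. *Mmp3*, stromelysin-1 of fibroblasts, was at 6.27 to 10.7 CPM in those 4 uteri, at 7.22 to 29.9 CPM in controls and at 22.6 CPM in replicate 5 (log2 fold change -0.71, adjusted p = 0.327, and -1.15, adjusted p = 0.0733, without replicate 5). The high values of replicate 5 extended to MMP genes on other chromosomes. *Mmp9*, the gelatinase stored in neutrophil granules, was at 7.47 to 14.6 CPM in controls, 7.08 to 10.3 in replicates 1 to 4 and 59.1 in replicate 5. *Mmp11*, stromelysin-3, was at 24.8 to 29.5, 20.5 to 30.3 and 119 CPM in the same order. Without replicate 5 the log2 fold changes of *Mmp9* and *Mmp11* were -0.30 (adjusted p = 0.415) and 0.033 (adjusted p = 0.896).

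**Figure D3:**
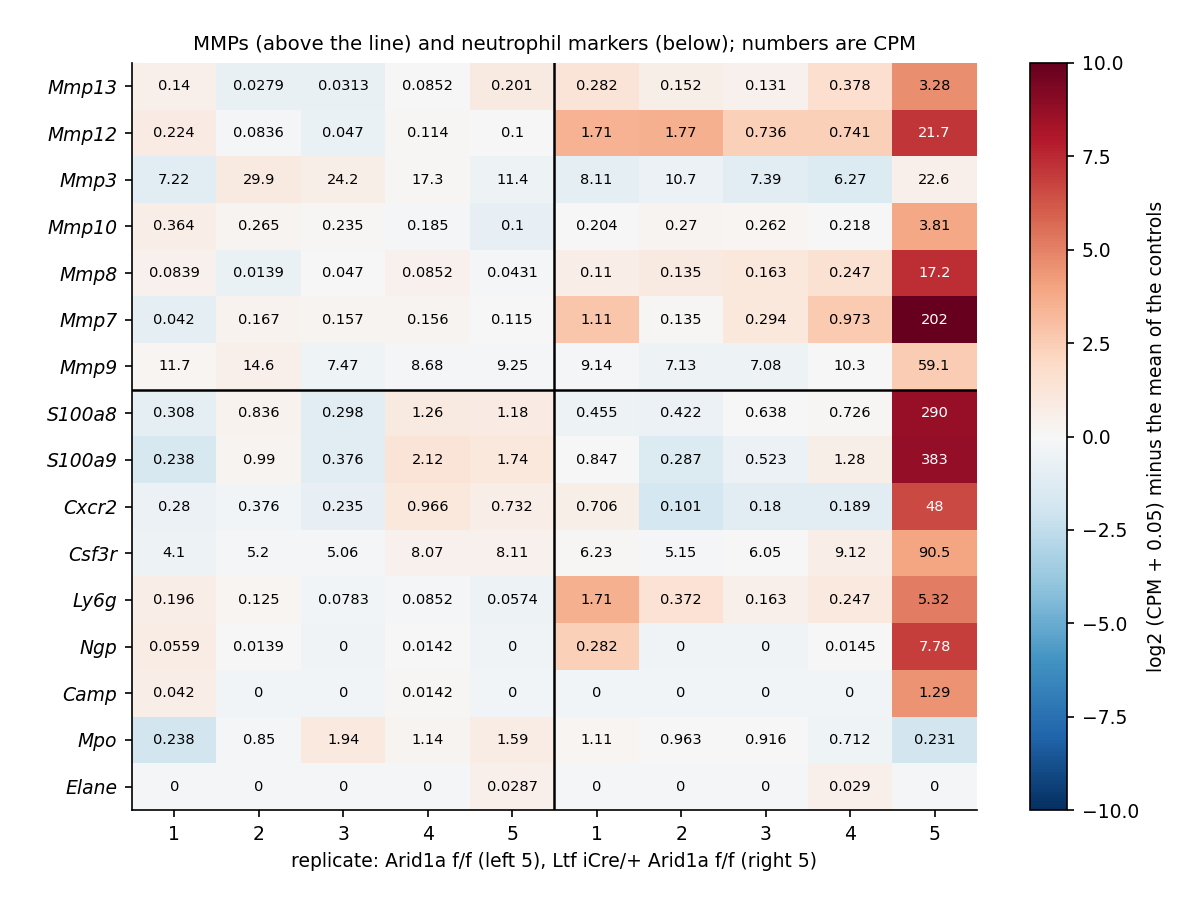
Each uterus (columns) for the 6 MMP genes of the chromosome 9 group, *Mmp9* and 9 neutrophil markers (rows); numbers are CPM and color gives log2 (CPM + 0.05) minus the mean of the 5 controls. Mutant replicate 5 is red for *Mmp7* (202 CPM), *Mmp12* (21.7), *Mmp8* (17.2), *S100a8* (290) and *S100a9* (383) but not for *Mpo* (0.231) or *Elane* (0), while *Mmp12* is higher than in controls in all 5 uteri of that genotype.

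The lower levels of 3 further MMP genes were also seen in mutant uteri other than replicate 5. *Mmp28*, which encodes the epithelial MMP epilysin (ENSMUSG00000020682, chr11:83440768-83463071), was at 8.98, 6.76, 7.27, 7.02 and 7.13 CPM in controls and at 3.45, 3.38, 3.34, 2.51 and 3.30 CPM in mutant uteri. The lowest control lay clear above the highest mutant value. With a log2 fold change of -1.22 ± 0.15 (adjusted p = 0.00159, exact permutation p = 0.00794), this was the largest fall among the MMPs, and it passed the threshold without any single uterus. In the same uteri 5 of the 6 epithelial markers measured were higher than in controls.

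*Mmp19* (ENSMUSG00000025355, chr10:128790910-128800824), an MMP that cleaves basement membrane proteins, was at 83.7, 105, 106, 85.3 and 109 CPM in controls and at 58.0, 65.2, 70.8, 68.6 and 60.4 CPM in mutant uteri. These values did not overlap, and the log2 fold change was -0.60 ± 0.10 (adjusted p = 0.00503, exact permutation p = 0.00794) and passed the threshold without any single uterus. *Mmp15*, the membrane-bound MT2-MMP (ENSMUSG00000031790, chr8:95352268-95375080), was at 47.8, 48.5, 44.2, 45.0 and 33.1 CPM in controls and at 36.2, 29.9, 36.1, 27.8 and 22.7 CPM in mutant uteri. Control replicate 5 lay within the range of the other genotype. The *Mmp15* log2 fold change of -0.52 ± 0.15 (adjusted p = 0.0455, exact permutation p = 0.0238) lost the threshold without any of control replicates 1 to 4 or mutant replicates 2, 4 or 5 (adjusted p up to 0.101). Reads of *Mmp19* and *Mmp28* cannot be told apart from those of genes on the opposite strand where exons overlap, over 789 bases with *Tmem198b* and over 466 bases with *1700020L24Rik*, if the counting did not use strand. The same holds for *Mmp12* with *Mmp1b* (157 bases) and *Mmp7* with *AV064505* (123 bases).

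The MMP genes of highest level showed no difference at the threshold. *Mmp2* was at 371, 542, 458, 385 and 493 CPM in controls and at 245, 351, 353, 348 and 453 CPM in mutant uteri. In 4 of the latter *Mmp2* lay below every control (log2 fold change -0.36 ± 0.16, adjusted p = 0.176, exact permutation p = 0.0476). *Mmp14*, whose product activates proMMP2 at the cell surface, was at 316 to 427 and 316 to 500 CPM (0.059, adjusted p = 0.839). *Mmp23* was at 58.3 to 81.2 and 59.6 to 80.1 CPM (0.006, adjusted p = 0.98).

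Of the 4 TIMP genes, 2 fell, and the median log2 fold change of the family was -0.21 (range -0.46 to 1.07). *Timp2*, which inhibits MMP2 and also takes part in its activation by MMP14 (ENSMUSG00000017466, chr11:118301069-118355740), was at 490, 534, 466, 421 and 451 CPM in controls and at 359, 405, 340, 308 and 406 CPM in mutant uteri. The groups did not overlap, although control replicate 4 and mutant replicates 2 and 5 lay close together. Its log2 fold change was -0.38 ± 0.10 (adjusted p = 0.0430, exact permutation p = 0.00794). *Timp3*, the inhibitor that binds to the matrix (ENSMUSG00000020044, chr10:86300372-86349506), was at 396, 366, 416, 404 and 331 CPM in controls and at 264, 357, 249, 236 and 279 CPM in mutant uteri. Only replicate 2 of the latter reached into the control range. The *Timp3* log2 fold change was -0.46 ± 0.12 (adjusted p = 0.0339, exact permutation p = 0.0159). Both TIMP calls are close to the threshold. That of *Timp2* held only without mutant replicate 2 or 5 (adjusted p from 0.0338 to 0.0913 over the omissions), and that of *Timp3* only without control replicate 5 or mutant replicate 2 or 5 (0.00754 to 0.0789). *Timp3* lies within *Syn3*, and 1733 of its exon bases overlap exons of *Syn3* on the opposite strand.

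*Timp1*, the inhibitor gene induced by cytokines, was at 8.74 to 15.2 CPM in controls and 9.36 to 13.4 CPM in mutant uteri (log2 fold change -0.042, adjusted p = 0.914). *Timp4* never exceeded 8 counts. Summed per kilobase, the TIMP genes ranged from 166.9 to 199 in controls and from 119 to 163 in mutant uteri, with *Timp2* and *Timp3* giving 90.3% to 94.7% of the sum in every uterus. The ratio of *Mmp14* to *Timp2* was 0.458 to 0.549 in controls and 0.614 to 0.805 in mutant uteri, without overlap, while that of *Mmp2* to *Timp2* overlapped (0.875 to 1.26 and 0.788 to 1.31). The sum of all MMP genes over that of all TIMP genes was 1.38 to 1.75 in controls, 1.5 to 1.93 in replicates 1 to 4 and 3.69 in replicate 5. These ratios are descriptions of RNA levels and were not tested.

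Among the 5 ADAMTS genes, 4 had a negative log2 fold change (median -0.26, range -0.62 to 0.12) and *Adamts9* fell. It encodes a versican- and aggrecan-cleaving protease (ENSMUSG00000030022, chr6:92772699-92943492). *Adamts9* was at 81.3, 98.1, 132, 93.5 and 84.2 CPM in controls and at 62.7, 67.6, 66.1, 61.3 and 61.2 CPM in mutant uteri. The mutant values lay within a narrow range below all controls, with a coefficient of variation of 4.59% against 20.6%. The log2 fold change of -0.62 ± 0.12 (adjusted p = 0.0109, exact permutation p = 0.00794) passed the threshold without any single uterus. Exons of *Adamts9* overlap those of *A730049H05Rik* on the opposite strand over 1381 bases.

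*Adamts1*, the most abundant ADAMTS gene per kilobase and a known target of the progesterone receptor, was at 167, 191, 229, 150 and 179 CPM in controls and at 151, 158, 168, 145 and 144 CPM in mutant uteri. The groups overlapped and *Adamts1* did not pass the threshold (log2 fold change -0.26 ± 0.11, adjusted p = 0.158, exact permutation p = 0.0556). *Adamts4*, an aggrecanase gene, was at 40.7 to 62.3 CPM in controls, at 28.1 to 34.7 CPM in mutant replicates 1 to 4 and at 45.1 CPM in replicate 5. It missed the threshold with all uteri (log2 fold change -0.47 ± 0.15, adjusted p = 0.0728) and passed it without replicate 5 (-0.59, adjusted p = 0.0203). For *Adamts2*, a procollagen N-proteinase, and the aggrecanase gene *Adamts5* the adjusted p were 0.824 and 0.538.

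**Figure D4:**
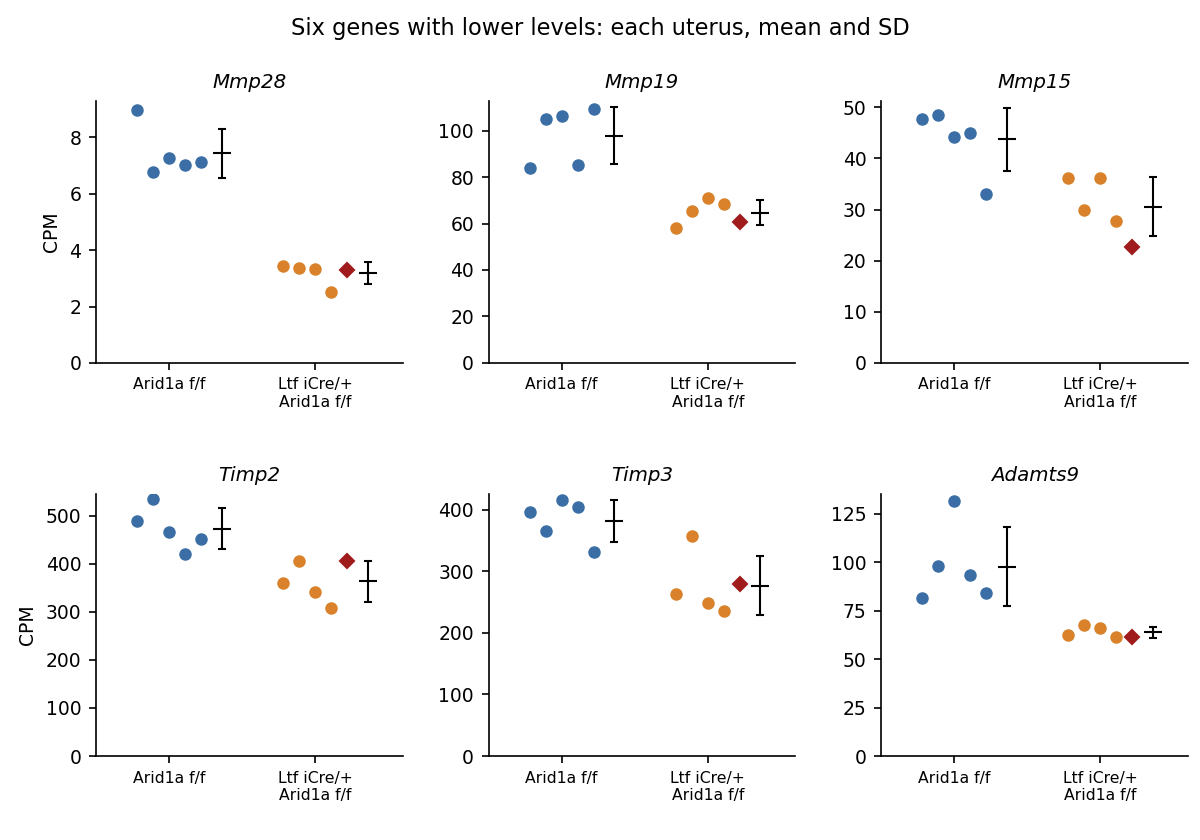
CPM in each uterus for *Mmp28*, *Mmp19*, *Mmp15*, *Timp2*, *Timp3* and *Adamts9*, with control uteri in blue, mutant uteri in orange (replicate 5 as a red diamond) and the mean with its SD as a black bar beside each group; axes start at 0. The groups are apart for *Mmp28*, *Mmp19*, *Timp2* and *Adamts9* and overlap for *Mmp15* and *Timp3*, and replicate 5 is the lowest mutant uterus for *Mmp15* and *Adamts9* and the highest for *Timp2*.

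None of the 3 genes of the plasminogen activator system passed the threshold with all uteri. *Plat*, which encodes tissue plasminogen activator (ENSMUSG00000031538, chr8:22757727-22782844), was at 127, 170, 134, 150 and 128 CPM in controls and at 190, 111, 91.5, 104 and 479 CPM in mutant uteri. Replicates 1 and 5 lay above all controls and replicates 2, 3 and 4 below all controls. Accordingly the sign of the *Plat* difference depended on the uteri included. The log2 fold change was 0.46 ± 0.41 with all uteri (adjusted p = 0.524, exact permutation p = 0.841), -0.19 ± 0.19 without replicate 5 (adjusted p = 0.597) and -0.47 ± 0.11 without replicates 1 and 5. The uteri left out last are those above all controls, so that fall was fixed by their omission and is not evidence of a difference. *Plau*, urokinase, was at 11.8 to 21.5 CPM in controls and 9.5 to 19.4 CPM in mutant uteri (-0.24, adjusted p = 0.523). *Plaur*, the urokinase receptor found on myeloid and epithelial cells, was at 4.90, 5.05, 5.92, 5.71 and 3.99 CPM in controls and at 8.11, 8.77, 5.62, 5.21 and 17.3 CPM in mutant uteri (0.82 ± 0.30, adjusted p = 0.111). Replicates 3 and 4 of the latter lay within the control range. The ratio of *Plau* to *Plaur* per kilobase was 2.68 to 4.71 in controls and 1.23 to 2.46 in mutant uteri, without overlap. That of *Plat* to the serpin gene *Serpine2* overlapped, at 1.43 to 2.09 in controls and 1.53 to 3.50 in mutant uteri. Both ratios are descriptions of RNA levels and were not tested.

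Of the 9 serpin genes, *Serpina3n* fell and the other 8 did not pass the threshold (median log2 fold change -0.17, range -2.81 to 1.21). *Serpina3n*, an antichymotrypsin-like inhibitor of the acute phase response (ENSMUSG00000021091, chr12:104406729-104414329), was at 0.797, 16.9, 11.9, 4.43 and 10.5 CPM in control replicates 1 to 5 and at 1.57, 1.27, 0.965, 0.741 and 1.81 CPM in mutant replicates 1 to 5. Control replicates 2 to 5 were above every mutant uterus, and control replicate 1 lay within the range of that genotype. The log2 fold change was -2.81 ± 0.63 (adjusted p = 0.0187, exact permutation p = 0.0397), and -3.11 ± 0.39 without control replicate 1, which is singled out by its own value. The *Serpina3n* difference passed the threshold without any single uterus. *Serpina3n* belongs to a family of closely similar genes, among which the assignment of reads is uncertain.

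The cluster of *Serpina* genes that holds *Serpina3n* was examined after its values were seen. Of its 28 genes 17 were tested, and only some of them are given here. *Serpina1e*, an alpha-1-antitrypsin gene 448 kb away, was at 66.6 CPM in control replicate 1, at 0.251, 0.0470, 0.128 and 0.115 CPM in control replicates 2 to 5, and at 144, 122, 132, 204 and 221 CPM in mutant replicates 1 to 5. Control replicate 1, which had the lowest control level of *Serpina3n*, was thus also apart from the other controls at *Serpina1e*, on the side of the mutants but below all of them. With all uteri the *Serpina1e* difference missed the threshold (log2 fold change 3.61 ± 1.56, adjusted p = 0.167). Without control replicate 1 the log2 fold change was 10.2 ± 0.40, and this was the only 1 of 10 single omissions that passed. That uterus is singled out by its own contrary value, so the pass without it cannot be read as evidence of a difference. *Serpina1c* was at 0 counts in control replicate 1, 11 to 19 counts in the other controls and at most 1 count in any mutant uterus. *Serpina1b* fell, from 1.55, 5.66, 4.65, 2.49 and 3.22 CPM in controls to 0.172, 1.05, 1.19, 0.407 and 0.188 CPM in mutants, and here control replicate 1 was the lowest control but above all mutants (-2.55 ± 0.58, adjusted p = 0.0202). The *Serpina1b* call was lost without control replicate 2 (adjusted p = 0.0547) or 3 (adjusted p = 0.0513). *Serpina1a* was at 0 counts in control replicate 1, 4 to 15 in the other controls and at most 1 in mutants (adjusted p = 0.0292). Control replicate 1 was also the lowest control for *Serpina3h* (3 counts against 38 to 129, mutants 6 to 57) and *Serpina3i* (6 against 22 to 53, mutants 0 to 53). For *Serpina9* it lay below every other uterus (0.224 CPM against 2.01 to 6.07 in the other controls and 2.47 to 15.4 in mutants). Control replicate 1 was not set apart at every gene of the cluster. It lay within the range of the other controls for *Serpina1d* (0.0839 CPM), *Serpina3f* (0.811 CPM) and *Serpina3g* (5.22 CPM). The alpha-1-antitrypsin genes are near copies of each other, so the split of reads among them is uncertain. The mice were of a mixed strain background, and the part of strain differences at this locus in the values of these *Serpina* genes was not tested.

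**Figure D5:**
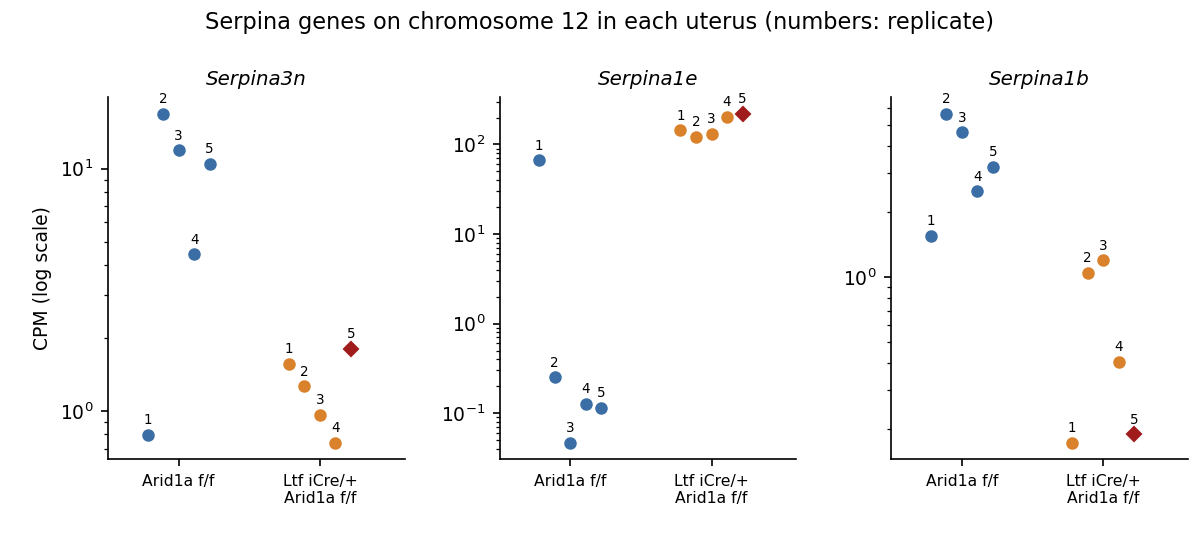
CPM (log scale) of *Serpina3n*, *Serpina1e* and *Serpina1b* in each uterus, with control uteri in blue, mutant uteri in orange (replicate 5 as a red diamond) and the replicate number above each point. Control replicate 1 lies among the mutants for *Serpina3n* (0.797 CPM) and nearer to them than to the other controls for *Serpina1e* (66.6 CPM).

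*Serpinh1* (ENSMUSG00000070436, chr7:99345376-99353239) was at 1195, 1214, 1422, 1105 and 983 CPM in controls and at 1602, 1691, 1217, 1076 and 956 CPM in mutant uteri. Only replicates 1 and 2 of the latter exceeded all controls, and the log2 fold change was 0.14 ± 0.17 (adjusted p = 0.654, exact permutation p = 0.540). *Serping1* was at 197 to 315 CPM in controls, at 139 to 172 CPM in mutant replicates 1 to 4 and at 297 CPM in replicate 5, and *Serpinb9*, the granzyme B inhibitor, was at 28.2 to 40.8, 23.4 to 25.8 and 36.9 CPM. In both genes replicates 1 to 4 lay below every control and replicate 5 within the control range. Neither passed the threshold with all uteri (adjusted p = 0.318 and 0.231), and both did without replicate 5 (log2 fold change -0.57, adjusted p = 0.0268, and -0.42, adjusted p = 0.0391). *Serpine2*, protease nexin-1, was at 95.2 to 155 CPM in controls, 63.9 to 104 in replicates 1 to 4 and 182 in replicate 5 (adjusted p = 0.741). Replicates 1 and 2 lay within the control range and replicates 3 and 4 below it, replicate 5 lay above them all, and *Serpine2* did not pass without it (adjusted p = 0.132). *Serpinf1* (adjusted p = 0.547) and *Serpinb6a* (adjusted p = 0.254) did not pass the threshold, at 231 ± 19.9 and 210 ± 37.4 CPM and at 141 ± 21.6 and 121 ± 13.4 CPM (SD, n = 5). *Serpinb2* and *Serpinb5* held at most 28 and 96 counts per uterus.

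Between control uteri the coefficient of variation was 71.2% for *Serpina3n*, 6.88% for *Adamts5* and 7.24% for *Mmp11*. That of *Mmp11* was 90.9% over the 5 mutant uteri and 16.6% without replicate 5.

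Genes that act with or on these proteins were described from lists of 127 further genes, of which 100 were tested and 20 (20%) passed the threshold, 5 higher and 15 lower, against 9.7% of all genes. Of 17 matrix genes, *Dcn*, *Bgn*, *Fn1*, *Nid1*, *Nid2*, *Col4a1* and *Col4a2* passed the threshold as lower (41.2%, against 4.51% of all genes) and none as higher (median log2 fold change -0.26). With all uteri a positive log2 fold change was found for 6 of the 17. Without mutant replicate 5, 5 of the 17 passed as lower and none as higher. *Dcn* is also among the stromal markers that were lower. *Col4a1*, which encodes a collagen of basement membranes, was at 1363 ± 336 CPM in controls and 706 ± 174 CPM in mutant uteri (SD, n = 5), without overlap (-0.95 ± 0.20, adjusted p = 0.0156). Endothelial cells are a major source of basement membrane collagen, and the part of the lower endothelial markers in this difference was not tested. Among further MMP and ADAMTS genes, *Mmp25*, a leukocyte MMP gene, rose from 1.29 ± 0.20 to 4.52 ± 3.11 CPM (1.81 ± 0.43, adjusted p = 0.0244), and 1 of 14 ADAMTS genes fell. *Lgals3*, galectin-3, which several MMPs cleave, rose from 14.1 ± 2.01 to 41.4 ± 16.0 CPM (1.55 ± 0.22, adjusted p = 0.00260), and *Vtn*, vitronectin, which binds plasminogen activator inhibitor-1, fell from 8.90 ± 1.73 to 4.76 ± 0.97 CPM (-0.90 ± 0.19, adjusted p = 0.0137). Of 14 cathepsin genes, *Ctss* and *Ctsb* rose and *Ctsf* fell. *Ctss*, the cathepsin of antigen-presenting cells, went from 67.2 ± 13.3 to 166 ± 94.7 CPM (1.30 ± 0.31, adjusted p = 0.0254).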

How the data were processed

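The authors used cutadapt 1.18 and Trim Galore 0.6.4 for trimming and STAR 2.7.3a for alignment to GRCm38, and deposited whole-number counts per gene for the 10 libraries, without normalization. The annotation release and the strand setting are not given in the sources used here. Symbols were assigned to 45143 of 45706 identifiers with GENCODE (GRCm38). Genes that averaged 1 count or more per library entered edgeR 4.0.16 (R 4.3.3, TMM, quasi-likelihood test on genotype alone, Benjamini-Hochberg adjustment over all tested genes, threshold 0.05), and CPM values use TMM library sizes. Alternatives were DESeq2 1.42.0, its size factors, other filters, the replicate number as a block and the omission of uteri. On simulated counts with 200 changed genes (absolute log2 change 1.5) for this comparison, edgeR recovered 87.5% and called 12 unchanged genes among 24690. DESeq2 recovered 90.5% and called 52 unchanged genes. The simulation gave both genotypes the same spread of counts, had no outlying uterus and changed only genes above a minimum mean count. Its rates therefore do not cover smaller changes or calls that depend on a single uterus.

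The 35 genes, further lists and marker lists were chosen with earlier results of these data known. Genes given in full were those past the threshold or without overlap, and the gene of highest level per kilobase in each family. Of the further lists, the 5 largest rises and 5 largest falls with a mean of at least 100 counts were eligible to be named. Each library is 1 uterus, and p-values measure the spread between uteri. No libraries were duplicates (chi-square of at least 36.1 per gene between any pair of a genotype). A level of 3 counts corresponds to 0.0418 to 0.0507 CPM, for counting error only. Promoter sequences are from RefSeq on GRCm38.p6. Drawings were made with matplotlib 3.10.9.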

Additional observations from a re-analysis of the deposited data

Results flagged for a closer look

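Within each group of 5 uteri, 15 of 90 groups checked held a uterus set apart from the others by a gap of more than 0.71 of the whole range. A rate of about 1 in 20, or 4.5, would hold for independent normal values. The groups share the same uteri, CPM values are skewed, and part of the genes were chosen for their change. The count can therefore not be set against chance. In 11 of the 15 groups mutant replicate 5 was the highest. Its values were 22.6 CPM for *Mmp3*, 202 CPM for *Mmp7*, 17.2 CPM for *Mmp8*, 59.1 CPM for *Mmp9* and 3.81 CPM for *Mmp10*. It further held 119 CPM of *Mmp11*, 21.7 CPM of *Mmp12*, 3.28 CPM of *Mmp13*, 479 CPM of *Plat*, 36.9 CPM of *Serpinb9* and 297 CPM of *Serping1*. Summed neutrophil (826 CPM), macrophage (481 CPM) and mast cell markers (38.0 CPM) were also highest in this uterus, and their part in these values was not tested. The other 4 were *Mmp15* in control replicate 5 (33.1 CPM, lowest), *Mmp28* in control replicate 1 (8.98 CPM, highest) and in mutant replicate 4 (2.51 CPM, lowest), and the cathepsin F gene *Ctsf* in mutant replicate 1 (14.2 CPM, lowest).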

How the results depend on the processing

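Of 220 recomputed values of the 14 genes given in full, 176 kept direction and side of the threshold, 42 kept direction but no longer passed it and 2 reversed, both for *Plat* (-0.19 without mutant replicate 5, -0.47 without replicates 1 and 5). *Mmp12*, *Mmp19*, *Mmp28* and *Adamts9* passed the threshold under every alternative that gave a value, and *Serpina3n* under all but the replicate block. DESeq2 called 4062 of all genes (2108 higher, 1954 lower) against 2438, and 9 of the 35, adding *Adamts4* and *Plaur*, but gave no adjusted p to *Mmp7*, *Mmp8* and *Mmp12*. *Mmp8* also had no value under edgeR's own filter on low counts, under which the TIMP median was -0.38 with *Timp4* not tested. Omitting uteri in turn, 1204 to 2381 of all genes, 5 to 11 of the 35 and 10 to 21 of the further genes were called. The count of the 35 was 5 without any of control replicates 1 to 4, and the omission of a uterus leaves fewer samples. The MMP median ranged from -0.044 (without mutant replicate 5) to 0.51, and was -0.053 without replicates 1 and 5 of mutant, 0.032 under edgeR's filter and 0.13 under the replicate block, against 0.42. That of the plasminogen activator genes ranged from -0.19 to 0.64, and was -0.47 without those uteri. Causes of the other changes were not tested.

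The replicate numbers of the genotypes share only a number. Deviations of same-numbered uteri correlated at -0.053 to 0.13, and 2 of 5 controls correlated best with their own number. With the replicate number as a block, 1704 of all genes passed (845 higher, 859 lower) and 6 of the 35 (2 higher, 4 lower), with *Mmp7*, *Mmp8*, *Timp2*, *Timp3* and *Serpina3n* lost and *Mmp13* gained.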

Other observations

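Over all 100 further genes tested the log2 fold change ranged from -5.17 to 6.60. Among those past the threshold with a mean of at least 100 counts, the largest changes also included the serpin genes *Serpina3f* and *Serpini1*. *Serpina3f* was at 0.708 ± 0.192 CPM in controls and 2.38 ± 1.96 CPM in mutant uteri (1.75 ± 0.50, edgeR adjusted p = 0.0477, but 1.17 and 0.0807 without mutant replicate 5). Among single omissions its call was kept only without mutant replicate 1 or 2. *Serpini1*, neuroserpin, was at 12.5 ± 2.24 and 7.03 ± 1.64 CPM (-0.83 ± 0.18, edgeR adjusted p = 0.0188). *Ctsb*, cathepsin B, was at 847 ± 79.6 and 1173 ± 83.5 CPM (0.47 ± 0.10, edgeR adjusted p = 0.0158), and *Ctsf*, cathepsin F, at 38.4 ± 4.71 and 22.3 ± 4.74 CPM (-0.78 ± 0.16, edgeR adjusted p = 0.0120).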
